A study of Mus musculus with 6 samples.

Results

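Dendritic cell genes were read in microglia sorted from the brains of young Bhlhe41 reporter mice. The 9 genes were Flt3, Zbtb46, Cd209a, Clec10a, Irf4, Xcr1, Clec9a, Itgae and Ccr7, which separate dendritic cells that carry Cd209a and Clec10a from cross-presenting and migratory ones. Every non-control probe whose transcript maps to one of these symbols was taken, giving 15 of 56605 probes on the array and 9 of 23462 genes tested. Flt3, Xcr1 and Itgae have 1 probe each and the other 6 genes have 2, so probes of a gene share a transcript and are not replicates.

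RNA came from 3 samples of Bhlhe41 dTomato-Cre/+ mice, the controls (B41HET), and 3 of Bhlhe41 dTomato-Cre/dTomato-Cre mice (B41KO), each sample hybridised to 1 single-colour array. A dTomato and Cre cassette placed before the start codon of Bhlhe41 ends its translation, so B41HET cells keep 1 working allele, B41KO cells have none, and both groups carry the reporter and Cre. No wild-type sample was analysed here, and the alleles are carried by every cell of the mouse, dendritic cells included. Cells were sorted as live CD45 low, CD11b+ and Cx3cr1+, a gate for microglia. CD11b and Cx3cr1 are also carried by many type 2 and monocyte-derived dendritic cells, which are as a rule CD45 high and so mostly outside the CD45 low gate. By the study's methods each sample was pooled from several mice, while the labels speak of 3 mice per genotype. The p-values measure the spread between these samples, and precision is limited by having 3 arrays per genotype.

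Of 10 microglia markers, all 10 were well above background on all 6 arrays. Their summed log2 level was 17.27 to 17.40 in B41HET and 17.21 to 17.30 in B41KO. A summed level, here and below, is the log2 of the sum of the unlogged signals of a list, so its brightest genes weigh most. Bhlhe41 itself does not check the labels, because by the study's methods the cassette ends translation, and how far each probe still reads the targeted transcript was not tested. Its brighter probe read 7.95, 7.87 and 7.65 in B41HET and 8.56, 7.84 and 8.21 in B41KO, which overlap, and it was not called (log2 fold change 0.38, limma adjusted p = 0.330). Its other probe read 7.86, 7.58 and 7.40 in B41HET and 7.96, 7.91 and 7.95 in B41KO, all higher, and was not called either (0.33, limma adjusted p = 0.204). Between 39654 and 42719 probes per array (70.1% to 75.5%) were well above background and no spot was saturated. The B41HET samples and B41KO sample 1 lay in row 1 of the slide, and B41KO samples 2 and 3 in row 2. A fit with slide row as a block therefore takes its genotype difference from B41KO sample 1 against the B41HET samples. In such a fit B41KO samples 2 and 3 inform only the spread.

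Dendritic cells take up antigen, carry it to lymph nodes and present it to T cells. Type 1 dendritic cells cross-present antigen on MHC class I, and carry Xcr1, Clec9a and, in many tissues, Itgae. Type 2 cells depend largely on Irf4, favour MHC class II and share surface lectins with monocyte-derived cells and macrophages, and both types mature into a Ccr7+ migratory state. In the healthy brain these cells are rare and sit mainly at the borders, in the meninges and choroid plexus, apart from the parenchymal microglia. Bhlhe41 is a basic helix-loop-helix repressor known to bind E-box sequences.

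Promoter sequence, taken from RefSeq on GRCm38.p6 as the 250 bases before and 50 after the start site, was found for 6 of the 9 genes, and for Clec10a, Itgae and Ccr7 none was matched. The windows printed here are those of Cd209a (chr8:3748935-3749234, minus strand) and Irf4 (chr13:30748983-30749282, plus strand), whose brighter probes were lower in B41KO, and of Flt3 (chr5:147400440-147400739, minus strand) and Xcr1 (chr9:123861980-123862279, minus strand), which hold the full E-box CACGTG. Capitals mark each match to CANNTG, the general E-box, which includes CACGTG. Both motifs read the same on both strands, apart from the bases at N. Each line runs 5′ to 3′ on the strand of its gene.
Cd209a: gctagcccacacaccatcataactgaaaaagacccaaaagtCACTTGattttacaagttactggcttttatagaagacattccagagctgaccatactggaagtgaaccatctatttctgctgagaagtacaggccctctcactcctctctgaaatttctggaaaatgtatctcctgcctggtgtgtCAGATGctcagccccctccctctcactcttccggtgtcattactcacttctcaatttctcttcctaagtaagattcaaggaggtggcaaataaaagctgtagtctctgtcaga
Irf4: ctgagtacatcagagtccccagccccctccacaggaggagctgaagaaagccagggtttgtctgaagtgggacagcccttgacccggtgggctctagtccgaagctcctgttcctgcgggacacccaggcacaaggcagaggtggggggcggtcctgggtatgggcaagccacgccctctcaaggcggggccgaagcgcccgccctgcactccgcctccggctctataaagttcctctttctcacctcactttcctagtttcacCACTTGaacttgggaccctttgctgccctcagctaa
Flt3: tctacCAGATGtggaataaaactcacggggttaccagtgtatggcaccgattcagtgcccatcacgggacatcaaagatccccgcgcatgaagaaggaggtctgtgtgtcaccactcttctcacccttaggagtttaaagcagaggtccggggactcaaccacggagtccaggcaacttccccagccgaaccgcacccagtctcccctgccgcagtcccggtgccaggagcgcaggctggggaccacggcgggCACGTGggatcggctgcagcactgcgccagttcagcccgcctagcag
Xcr1: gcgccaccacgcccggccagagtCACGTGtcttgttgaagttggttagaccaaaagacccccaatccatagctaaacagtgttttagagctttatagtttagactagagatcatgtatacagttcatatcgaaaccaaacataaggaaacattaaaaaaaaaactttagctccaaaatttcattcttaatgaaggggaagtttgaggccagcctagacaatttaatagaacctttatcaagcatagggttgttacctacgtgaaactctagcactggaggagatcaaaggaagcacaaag
The letters CACGTG were in 2 of the 6 windows, starting at position 4 in Flt3 and at position -227 in Xcr1, counted from the start site. Among all 32851 windows of the same length, 7.15% hold CACGTG and 72.3% hold CANNTG, which was in all 6 members' windows. Cd209a has CANNTG at -209 and -63, and Irf4 at 15. These matches describe the windows only.

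In B41KO microglia, 4 of the 15 probes were called lower and 0 higher, where a call needs a limma adjusted p, over all probes, of at most 0.05 and a log2 fold change of at least 0.5 in either direction. They were both Clec10a probes and the brighter probes of Cd209a and Irf4. In sorted bulk samples fewer cells of a type and less RNA per cell cannot be told apart. Over all probes tested 3.38% were called lower and 1.72% higher, 5.09% in either direction. Without adjustment, 5 of the 15 had a p under 0.05, all lower, where 23% of all probes had one in either direction. By the brightest probe of each gene, 3 of 9 genes were called lower and 0 higher, against 4.05% and 1.44% of all genes (5.49% in either direction), and 4 of 9 had an unadjusted p under 0.05, against 25% of all genes in either direction. The median log2 fold change (B41KO minus B41HET) was -0.31 over the 15 probes and -0.40 over the 9 genes, against 0.01 over all probes. The B41KO samples all lay below the B41HET samples on 5 probes, a share that 15.3% of all probes met, and all above on 0, which 14.4% met (29.6% in either direction). By gene these counts were 4 and 0 of 9, against 18.1% and 14% of all genes. Of the probes, 7 were well above background on all 6 arrays, 3 on none and 5 on some.

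The plot of every probe in every sample shows these levels. Values are log2 of the background-subtracted signal after quantile normalization, and they are comparable between samples for a probe but not between probes.

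**Figure D1:**
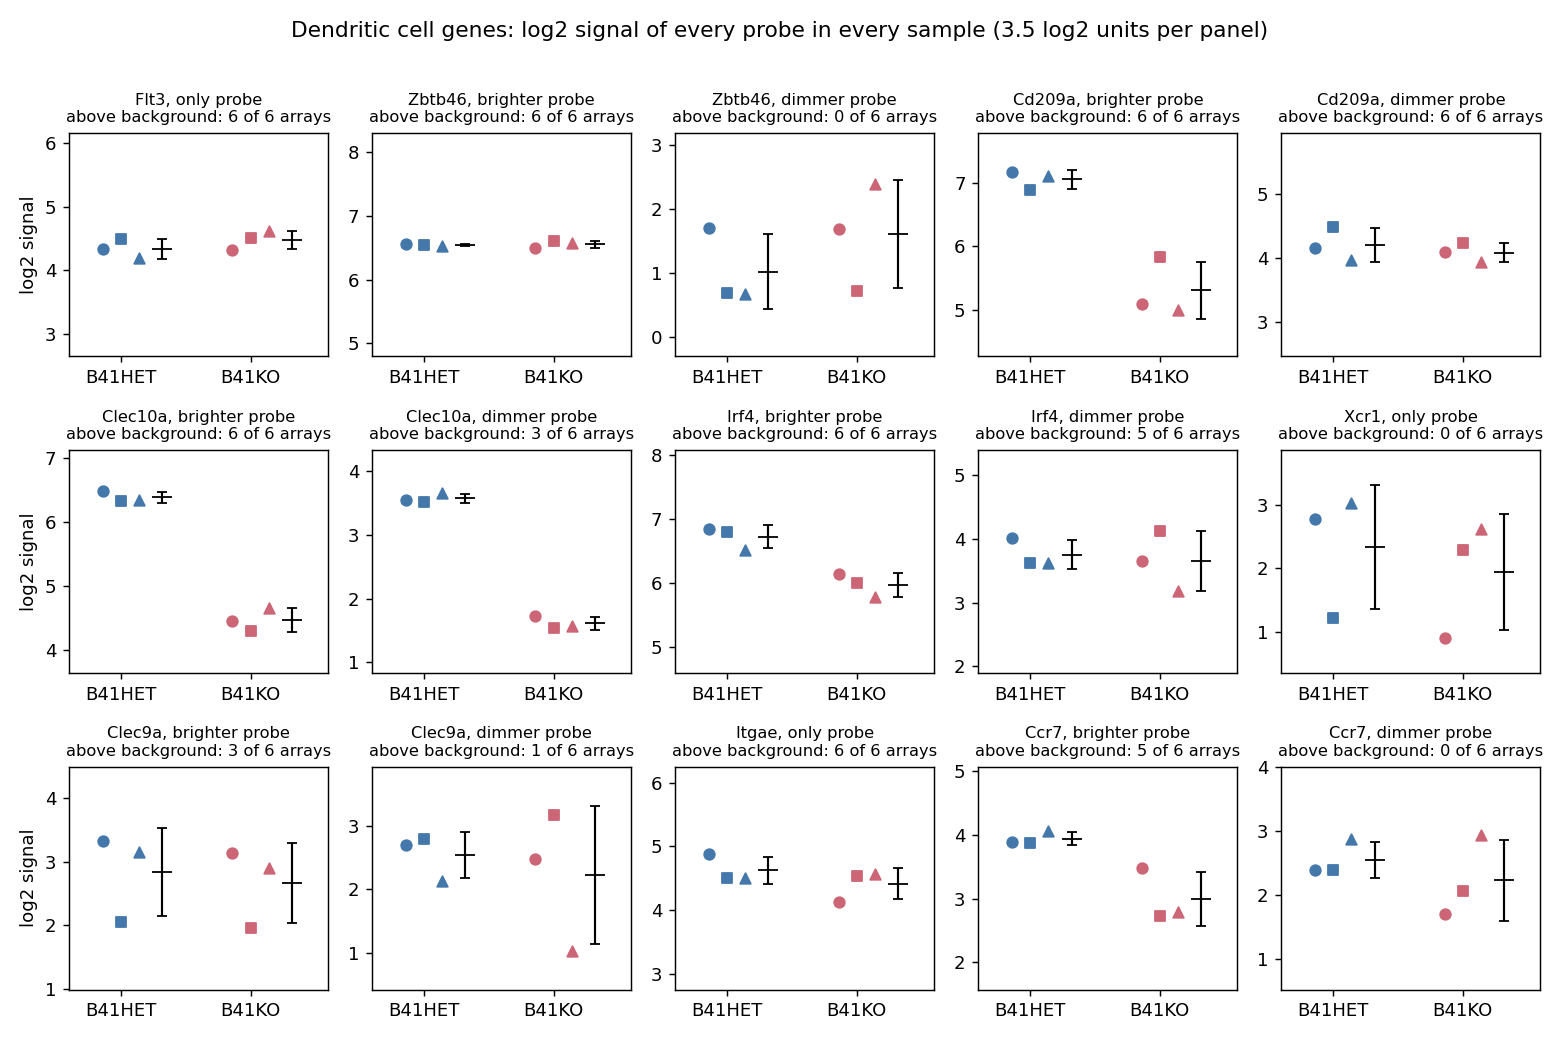
Log2 signal (y axis, 3.5 log2 units in each panel) of the 15 dendritic cell gene probes in 3 B41HET (blue) and 3 B41KO (red) samples, circles, squares and triangles being replicates 1, 2 and 3, with mean and SD beside each group. Both Clec10a probes and the brighter probes of Cd209a, Irf4 and Ccr7 have all B41KO samples below all B41HET samples, and the other 10 panels overlap.

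Clec10a and Cd209a, lectins of type 2 and monocyte-derived dendritic cells that some macrophages share, had the lowest B41KO values relative to B41HET among the 9 genes, by the brightest probe. Clec10a encodes the macrophage galactose-type lectin (CD301a), which binds terminal galactose and N-acetylgalactosamine. Its brighter probe read 6.49, 6.33 and 6.35 in B41HET and 4.45, 4.29 and 4.66 in B41KO. The lowest B41HET sample lay 1.68 log2 units above the highest B41KO sample, while the SD was 0.09 in B41HET and 0.18 in B41KO (n = 3 each). The log2 fold change was -1.92 (SE 0.12, 95% confidence interval -2.21 to -1.64), a 3.79-fold lower signal, with a limma adjusted p of 0.00222. The dimmer Clec10a probe read 3.55, 3.51 and 3.66 in B41HET and 1.73, 1.55 and 1.57 in B41KO. This probe was well above background on all 3 B41HET arrays and on 0 of 3 in B41KO, so its change has only a bound, at least 1.59-fold lower (measured means 3.57 and 1.61, limma adjusted p = 0.00107). The bound sets the B41HET mean against the lowest signal well above background on each B41KO array.

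Cd209a encodes a mouse relative of DC-SIGN, a lectin that binds mannose- and fucose-rich glycans. The brighter Cd209a probe read 7.16, 6.89 and 7.10 in B41HET and 5.10, 5.83 and 5.01 in B41KO. All B41KO samples were lower, by a gap of 1.06 log2 units, and B41KO sample 2 was the highest of them. The log2 fold change was -1.74 (SE 0.24, 95% confidence interval -2.33 to -1.15), a 3.34-fold lower signal, with a limma adjusted p of 0.0179. The dimmer probe read 4.16, 4.49 and 3.97 in B41HET and 4.09, 4.23 and 3.93 in B41KO, all well above background. Its groups overlapped, and its log2 fold change of -0.12 (95% confidence interval -0.52 to 0.27) was not called (limma adjusted p = 0.716). Within arrays, the brighter probe exceeded the dimmer one by 2.85 ± 0.40 (SD, n = 3) in B41HET and 1.23 ± 0.33 in B41KO. That difference changed by -1.62 with no overlap (exact two-sided permutation p = 0.1, the smallest that 3 against 3 samples can give, and 0.3 after Benjamini-Hochberg adjustment over 6 genes). Both probes were designed on the same transcript, so the 2 readings disagree on Cd209a. Averaged over both probes, Cd209a changed by -0.93 and was still called (limma adjusted p = 0.0301).

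The call on the brighter Cd209a probe was lost on leaving out any 1 sample other than B41KO sample 2 (log2 fold change -1.82 to -1.59, limma adjusted p 0.0561 to 0.0716), and when slide row entered the fit as a block (-1.95, limma adjusted p = 0.101). With another background correction (normexp on the median signal) the changes of the brighter Cd209a and Clec10a probes were smaller, -0.91 and -0.83, and still called, while the dimmer Clec10a probe stood at -0.16 and was not. Both Clec10a probes kept their calls on leaving out each sample. In the slide row fit, where the difference rests on B41KO sample 1 against B41HET, the brighter one stood at -1.94.

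Irf4, a transcription factor required by many type 2 dendritic cells and also used by B cells and macrophages, was lower on 1 of its 2 probes. Its brighter probe read 6.85, 6.80 and 6.52 in B41HET and 6.14, 5.99 and 5.77 in B41KO. The groups were 0.38 log2 units apart, against an SD of 0.18 in B41HET and 0.19 in B41KO. The log2 fold change was -0.75 (SE 0.14, 95% confidence interval -1.10 to -0.41), a 1.69-fold lower signal, with a limma adjusted p of 0.0377. The dimmer Irf4 probe read 4.02, 3.62 and 3.63 in B41HET and 3.65, 4.12 and 3.17 in B41KO, which overlap (log2 fold change -0.11, limma adjusted p = 0.855). It was well above background on 5 of 6 arrays. Averaged over both probes, Irf4 changed by -0.43 and was not called (limma adjusted p = 0.218). The call on the brighter probe was also lost without any 1 sample, in the slide row fit (-0.58, limma adjusted p = 0.244) and with normexp (-0.48, under the fold threshold).

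Flt3 and Zbtb46, which mark conventional dendritic cells as a whole, were not called. Flt3 is the receptor for the cytokine Flt3 ligand, which drives dendritic cell development. It read 4.33, 4.49 and 4.19 in B41HET and 4.32, 4.50 and 4.61 in B41KO, with both groups well above background. The groups overlapped, and the interval of the log2 fold change of 0.14 ran from -0.16 to 0.44 (limma adjusted p = 0.560). Zbtb46 is a zinc finger factor of the conventional dendritic cell lineage that endothelial cells also express. Its brighter probe read 6.56, 6.55 and 6.53 in B41HET and 6.49, 6.60 and 6.57 in B41KO. The groups overlapped within this narrow range, and the log2 fold change was 0.01 (95% confidence interval -0.16 to 0.18, limma adjusted p = 0.957). The other Zbtb46 probe never stood well above background and was not called (limma adjusted p = 0.565).

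The genes of cross-presenting dendritic cells lay near background or overlapped between genotypes. Xcr1, the receptor for the chemokine Xcl1 and a defining marker of type 1 cells, read 2.77, 1.21 and 3.02 in B41HET and 0.90, 2.29 and 2.62 in B41KO. No array had it well above background, and its log2 fold change of -0.40 (SE 0.65) was not called (limma adjusted p = 0.772). Clec9a, a lectin that recognises actin exposed on dead cells, read 3.32, 2.05 and 3.15 in B41HET and 3.14, 1.95 and 2.90 in B41KO on its brighter probe. That probe was well above background on 2 B41HET arrays and 1 B41KO array, and its other probe on 0 and 1. Neither was called (log2 fold changes -0.17 and -0.31, limma adjusted p = 0.865 and 0.796). Itgae, the CD103 chain that pairs with Itgb7 to bind E-cadherin, is also found on intraepithelial and resident T cells. It read 4.87, 4.51 and 4.50 in B41HET and 4.13, 4.54 and 4.57 in B41KO, above background throughout. B41KO sample 1 was the lowest and B41HET sample 1 the highest, the other 4 lay between 4.50 and 4.57, and the log2 fold change of -0.22 was not called (95% confidence interval -0.63 to 0.20, limma adjusted p = 0.520).

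Ccr7 is the receptor for Ccl19 and Ccl21 that guides mature dendritic cells and T cells to lymph nodes. Its brighter probe read 3.89, 3.87 and 4.06 in B41HET and 3.48, 2.72 and 2.79 in B41KO. All B41KO samples were below all B41HET samples by 0.39 log2 units, but the log2 fold change of -0.94 (SE 0.22, 95% confidence interval -1.48 to -0.40) was not called (limma adjusted p = 0.0651). The probe was well above background on 3 B41HET arrays and 2 B41KO arrays. The dimmer Ccr7 probe was well above background on none (log2 fold change -0.32, limma adjusted p = 0.641). The brighter probe was called when probes not well above background on at least 3 arrays were left out (limma adjusted p = 0.0278) and without B41KO sample 1 (-1.18, limma adjusted p = 0.0217). In the slide row fit its change was -0.46 (limma adjusted p = 0.203).

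The plot of processing settings follows the 5 probes whose groups did not overlap through each alternative, and the plot of fold changes orders all 15 probes by role.

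**Figure D2:**
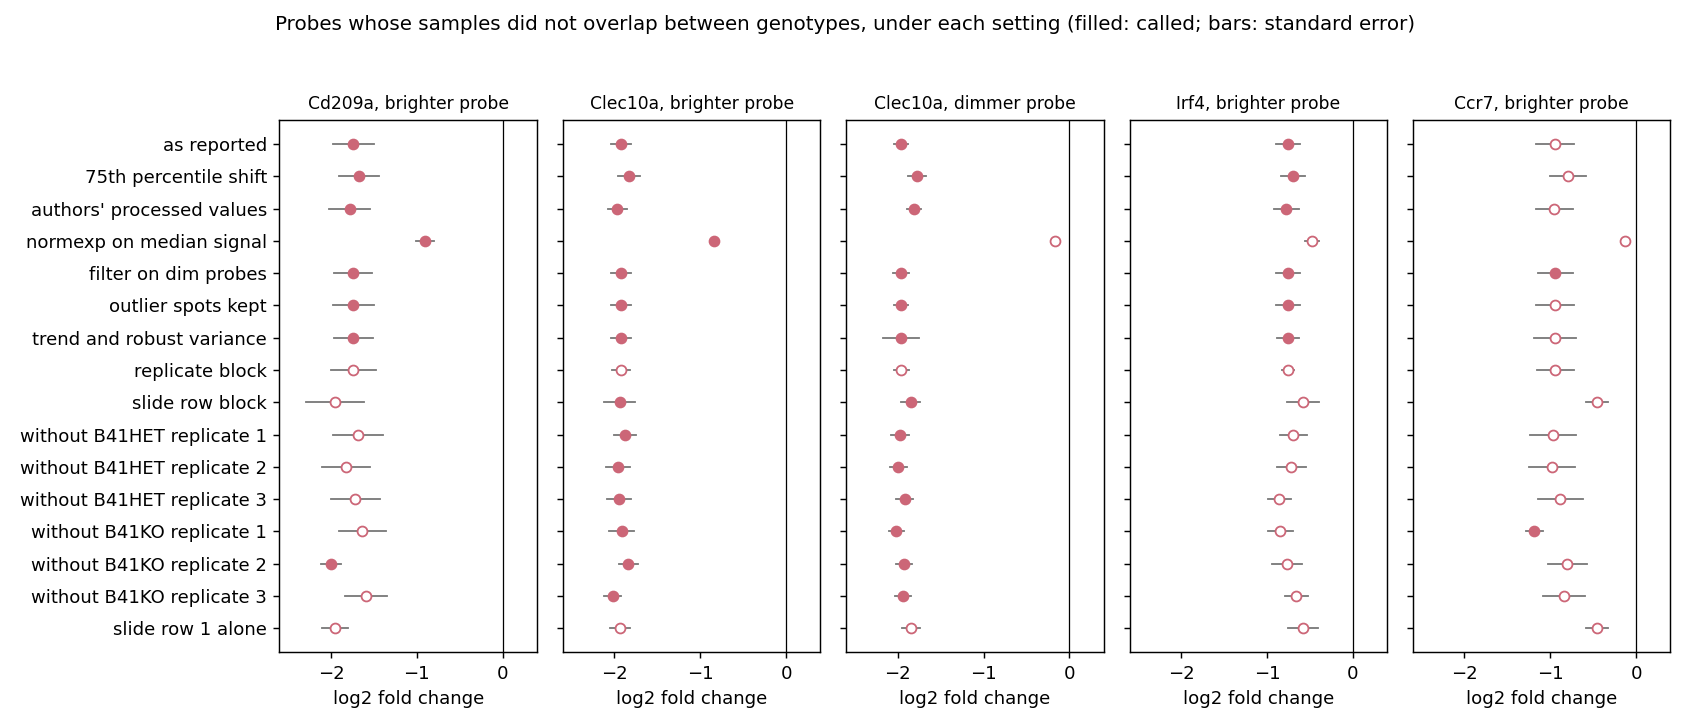
Log2 fold change (x axis, B41KO minus B41HET) with its standard error under each processing setting (y axis) for the 5 probes whose genotypes did not overlap, filled points being called. All points lie below 0, the brighter Clec10a probe between -2.02 and -0.83, the brighter Irf4 probe between -0.86 and -0.48 and the brighter Ccr7 probe between -1.18 and -0.13.

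**Figure D3:**
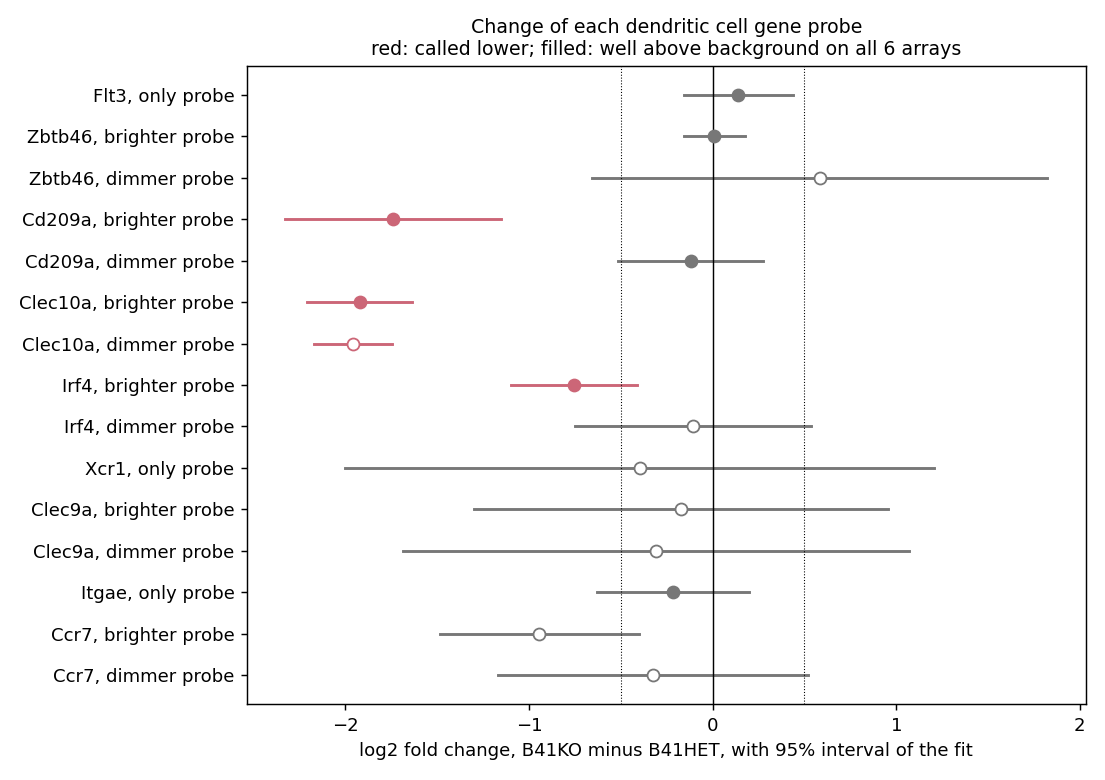
Log2 fold change (x axis, B41KO minus B41HET) with its 95% confidence interval for each of the 15 probes (y axis, grouped by role), from limma over 3 B41HET and 3 B41KO samples. Red marks the 4 called probes, filled points are well above background on all 6 arrays and dotted lines stand at the fold threshold of 0.5 in each direction. The called probes are both of Clec10a and the brighter ones of Cd209a (-1.74) and Irf4 (-0.75). The dimmer Clec10a probe was not well above background in B41KO, so its point rests on background values, and the intervals of Flt3, Zbtb46 and Itgae cross 0.

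The difference between these genes was itself compared within arrays, as the brighter probe of Cd209a, Clec10a or Irf4 minus that of Flt3, Zbtb46 or Itgae. In 8 of the 9 pairs this difference was lower in every B41KO sample than in every B41HET sample. It changed by -2.06 for Clec10a against Flt3, by -1.75 for Cd209a against Zbtb46 and by -0.76 for Irf4 against Zbtb46. The remaining pair, Irf4 against Itgae, overlapped (-0.54). The pairs were formed from the calls, so these values describe the arrays and carry no test.

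Among 62 further genes of dendritic cell lists and of the members' ligands and partners, 4 were called lower and 0 higher by the brightest probe, beside 4.05% and 1.44% of all genes. Without adjustment 13 were lower and 7 higher at p under 0.05, beside 25% of all genes in either direction, and their median log2 fold change was 0.04. Another 5 of the 62, named after their values were seen, were called lower on a probe other than the brightest. The share of all genes called only on such a probe was not counted, so this count has nothing to be set against. They were Cd24a (-1.86), Marcksl1 (-1.02), Lag3 (-0.57), Tcf4 (-0.52) and Relb (-0.51), with limma adjusted p of 0.0177, 0.0295, 0.0111, 0.0266 and 0.0484.

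Of 8 pan dendritic cell genes 1 was called lower, the iron regulator Hfe (-0.51, limma adjusted p = 0.0405), and the brightest, the myeloid factor Spi1, stood at -0.40 (limma adjusted p = 0.0406), under the fold threshold. Of 10 type 1 genes 0 were called, the brightest being Irf8, a factor that type 1 cells and microglia both need (-0.05), and the adhesion molecule Cadm1 (0.17). At an unadjusted p under 0.05, 1 of these 10 was lower and 1 higher. Id2, a helix-loop-helix inhibitor that type 1 cells need, was named after its values were seen. It stood at -0.70 (limma adjusted p = 0.0526) and was called lower with the authors' processed values, normexp, the dim probe filter, the trend and robust variance and without B41HET sample 3 (-0.84 to -0.54). Of 13 type 2 and monocyte-derived genes 2 were called lower. They were Klf4, a zinc finger factor of monocytes and type 2 cells (-0.56, limma adjusted p = 0.0173), and Ear2, an eosinophil-associated ribonuclease. Klf4 read 13.61, 13.74 and 13.60 in B41HET and 13.04, 13.10 and 13.13 in B41KO, and which cells gave this bright signal was not tested. Ear2 read 4.31, 4.36 and 4.45 in B41HET and 2.25, 1.64 and 2.98 in B41KO. It was not well above background in B41KO and thus at least 2.76-fold lower (limma adjusted p = 0.0262). On leaving out each sample 0 to 1 of the 13 was called, 0 without B41HET sample 1, B41HET sample 3 or B41KO sample 1 and 1 without each of the others (Cd209c without B41HET sample 2), and with slide row as a block 0. The pan dendritic cell call was lost on leaving out any 1 sample and with the row block.

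Mgl2, the second mouse galactose-type lectin, was named after its values were seen. It read 10.40, 10.34 and 10.39 in B41HET and 10.72, 10.83 and 10.77 in B41KO, so all B41KO samples were higher, by a log2 fold change of 0.40 (limma adjusted p = 0.0321, under the fold threshold). The other Mgl2 probe had a log2 fold change of -0.30 and was not called, so the 2 probes differ in sign. Cd209d and Cd209b, chosen in the same way as relatives of Cd209a, had log2 fold changes of 0.23 and 0.51 and were not called (limma adjusted p = 0.232 and 0.267). Cd209c and Cd209e, also relatives, were well above background on no array (-0.90 and 0.23, limma adjusted p = 0.118 and 0.191). With the 75th percentile shift Cd209e was called higher (0.59, limma adjusted p = 0.0291), on values near background.

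Of 14 genes of the mature migratory state 1 was called lower, the actin-bundling fascin Fscn1 (-0.74, limma adjusted p = 0.0429). It read 11.47, 11.48 and 11.23 in B41HET and 10.84, 10.40 and 10.73 in B41KO, and which cells gave this signal was not tested. The bright costimulatory ligand Cd86 stood at -0.21 (limma adjusted p = 0.183), with its 3 probes between -0.33 and 0.32. The Fscn1 call was lost on leaving out any 1 sample, with the row block and with the 75th percentile shift. Of 9 plasmacytoid genes 0 were called by the brightest probe, and 1 was lower and 1 higher at an unadjusted p under 0.05. Siglech, which is also in the microglia list, stood at 0.04 and Lag3 at -0.14. Of 8 ligands and partners 0 were called, 1 lower and 2 higher without adjustment. Batf, a partner of Irf4 named after its values were seen, stood at 0.62 (limma adjusted p = 0.0556) and was called higher with the dim probe filter and with the trend and robust variance. The brightest of them were Itgb7, the partner chain of Itgae (0.02), and Etv6, a factor of dendritic cell development (-0.02).

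MHC class II genes are used by dendritic cells, B cells, border macrophages and activated microglia to present antigen. Of 10 such genes 5 were called lower and 1 higher, beside 4.05% and 1.44% of all genes, and their median log2 fold change was -0.52. A further gene, their activator Ciita, was called lower only on its dimmer probe (-0.99, limma adjusted p = 0.0452). The called genes included the class II chains H2-Aa (-2.29) and H2-Eb1 (-1.10), the invariant chain Cd74 (-1.56) and the peptide loader H2-DMa (-0.64), with limma adjusted p of 0.00192, 0.0121, 0.00139 and 0.0377. The 1 called higher, named after its values were seen, was the loader subunit H2-DMb1 (0.59, limma adjusted p = 0.0323). Their summed log2 level was 14.51 to 14.62 in B41HET and 13.57 to 13.75 in B41KO. Without B41HET sample 1, and with the row block, 2 of the 10 were called lower, and 3 to 4 without each of the other samples, while H2-DMb1 was not called in any of these fits.

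Markers of other cells moved with the lower lectin genes. Over all genes 4.05% were called lower and 1.44% higher, the shares to set beside the counts of this and the next paragraph. Of 10 neutrophil genes 8 were called lower and 0 higher (median -2.37), among them the granule proteins Ltf (-3.18) and Ngp (-3.13), the protease Mmp9 (-3.00) and the alarmin S100a9 (-2.52). Their summed log2 level was 14.90 to 15.07 in B41HET and 12.48 to 12.60 in B41KO, and all 10 were well above background on every array. Of 8 monocyte genes 4 were called lower (median -1.14), Plac8 (-2.68), Chil3 (-2.27), Ly6c2 (-2.10) and F13a1 (-1.92). Plac8 was well above background on 2 of 3 B41KO arrays and F13a1 on 1 of 3, so their values rest partly on background. The monocyte list had summed levels of 10.49 to 10.57 and 8.70 to 8.76. On leaving out any 1 sample other than B41KO sample 3, and with the row block, 2 of them were called, and with normexp 3 were and the median was -0.31. Fn1 was called lower on probes other than the brightest (-3.42 and -2.63). Of 10 border macrophage genes 4 were called lower (median -0.87), Cbr2 (-1.44), Ms4a7 (-1.10), the haemoglobin scavenger receptor Cd163 (-1.03) and the chemokine Pf4 (-0.72). With the dim probe filter 6 were called, with Mrc1 (-1.26, limma adjusted p = 0.0316) and Lyve1 (-1.80, limma adjusted p = 0.0435) added. Both were well above background on no B41KO array. The border macrophage list had summed levels of 11.37 to 11.48 in B41HET and 10.87 to 10.996 in B41KO. Its brightest gene, Stab1, which weighs most in them, had means of 11.07 and 10.57 and was not called. With normexp 2 were called and the median was -0.25, without B41HET sample 2 also 2, and with the row block 1. The part of these cells in the lower Clec10a, Cd209a and Irf4 signals was not tested.

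Of 8 B cell genes 1 was called lower, the receptor chain Cd79a (-0.99, not called with normexp or the row block), with Cd79b at 0.02 and Pax5 at 0.07, while the defining marker Ms4a1 was above background on no array. Their summed levels were 10.33 to 10.53 in B41HET and 10.44 to 10.46 in B41KO. Of the 9 T and NK cell genes listed 8 were measured and 0 called, with Cd4 at 0.32 and Cd3e at 0.09, and 2 higher at an unadjusted p under 0.05. Their summed levels were 10.37 to 10.41 in B41HET and 10.60 to 10.72 in B41KO, in which Cd4, the brightest (means 9.91 and 10.23), weighs most. Of 10 microglia genes 1 was called lower, the Fc receptor-like Fcrls (-0.76), and Cx3cr1, part of the sort gate, stood at -0.25 and Tmem119 at -0.05. The plot of related genes sets these lists side by side.

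**Figure D4:**
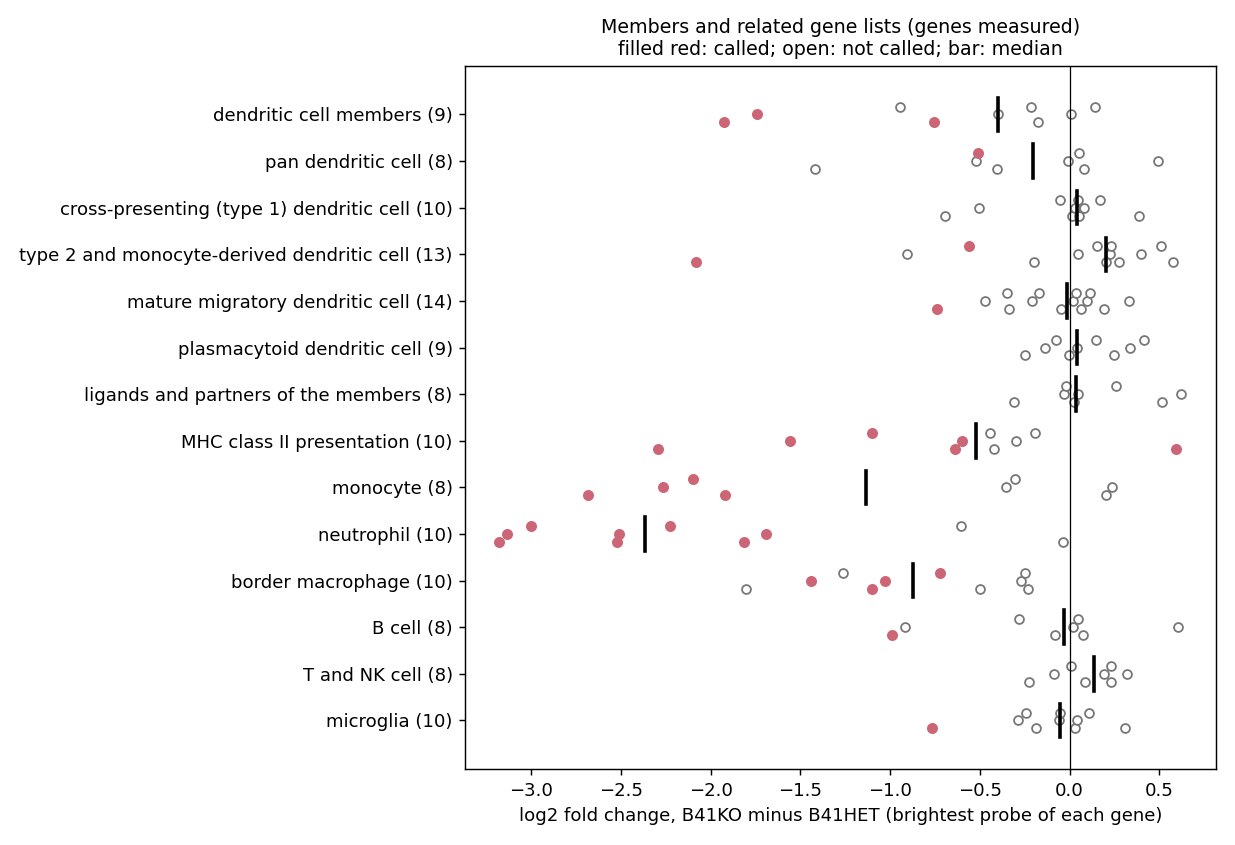
Log2 fold change (x axis, B41KO minus B41HET, brightest probe of each gene) of the genes of each related list (y axis), filled red where called, with a bar at the median and the number of genes measured in brackets. The neutrophil list has the lowest median, -2.37, followed by the monocyte list at -1.14, and the 5 dendritic cell lists have medians between -0.21 and 0.20.

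The genes whose profiles over the 6 samples were most like those of Clec10a and Cd209a were sought among 18380 others, by the root mean square difference of mean-centred log2 signal. For Clec10a they were Prtn3 (0.132), Lcn2 (0.136), Rflnb (0.137), Ly6c1 (0.138) and Cybb (0.151). Prtn3 and Lcn2 are neutrophil granule proteins and Cybb is the phagocyte oxidase subunit. For Cd209a they were Fam71a (0.194), Pecam1 (0.195), Kcna3 (0.205), Gpx3 (0.207) and Cbr2 (0.210), of which Pecam1 is an endothelial and leukocyte adhesion molecule and Cbr2 is in the border macrophage list. A profile over 6 samples in 2 groups is set mostly by the genotype difference, so likeness here describes size and spread. The plot of alike profiles shows them.

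**Figure D5:**
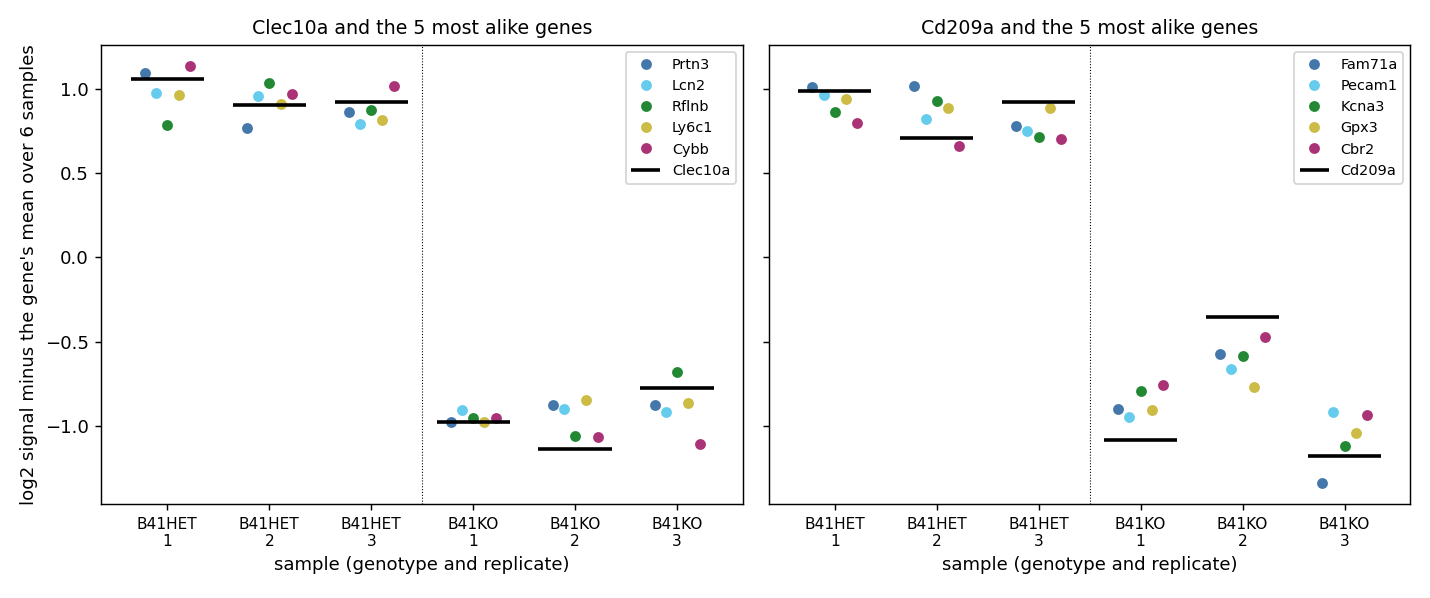
Log2 signal minus each gene's own mean over 6 samples (y axis) by sample (x axis), with Clec10a (left) and Cd209a (right) as black bars and the 5 most alike genes as coloured points. B41HET samples lie above 0 and B41KO samples below, and for Cd209a the B41KO sample 2 bar is nearest to 0.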

How the data were processed

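Purified microglia RNA of 3 B41HET and 3 B41KO samples was labelled with Cy3 and hybridised to single-colour arrays. For each array the authors deposited the scanner's output from Agilent Feature Extraction 11.5.1.1, with intensity values background-subtracted and detrended but not normalized between arrays. The log2 table deposited by the authors (56745 entries, 140 of them controls) was used as an alternative. All per-sample columns were mapped to a sample.

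Control spots were left out, leaving 59305 of 62976. Log2 intensity was quantile normalized, outlier-flagged spots (95 to 136 per array) were dropped and spots of a probe averaged. Genotype was fitted by limma 3.58.1 in R 4.3.3 over all 56601 tested probes, with Benjamini-Hochberg adjustment. The study's methods name quantile normalization and limma, and an adjusted p without naming the adjustment. The script was tested on simulated data. Transcript accessions, without versions, named 33767 probes (59.7%) through a RefSeq table. The array was designed on mm9, so no coordinates are given for probes, and gene names can be old. A gene stands for its brightest probe. Figures used matplotlib 3.10.9 in Python 3.11.15.

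The named genes were all members by every probe, called list genes (up to 4 per list) or the 2 brightest where fewer than 2 were called, the 5 most alike genes of the 2 members with the largest change, and Bhlhe41. Other genes, among them Mgl2, Cd209b to Cd209e, Id2, Batf, Ms4a1 and genes called on a probe other than the brightest, were named after their values were seen. The members and lists were chosen with earlier results of these data known. Of 127 list entries 126 were measured, Siglech being entered in both the plasmacytoid and the microglia list. Alternatives covered scaling, background correction, dim probes, outlier spots, variance, blocks, probe rule and samples left out.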

Additional observations from a re-analysis of the deposited data

How the results depend on the processing

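Over all probes, 1912 were called lower and 971 higher. Counts were 1084 and 417 with normexp, 263 and 185 when slide row was a block, and 554 to 1019 and 242 to 509 on leaving out each sample. Within slide row 1 alone, an alternative chosen after seeing the data that leaves B41KO 1 sample, assumed to vary like the B41HET samples, 0 and 0 were called (9287 at an unadjusted p under 0.05). A 75th percentile shift moved the median of all probes from 0.01 to 0.13 and the share of lower calls from 66.3% to 54.2%. Of the 15 member probes, 4 were called lower, 2 with normexp, 2 with the row block, 0 in row 1 alone and 2 to 3 on leaving out each sample. The value 2 came without any B41HET sample or without B41KO sample 3. None was called higher in any setting.

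Of the related list genes 27 were called lower, 13 with the row block, 0 in row 1 alone and 17 to 21 on leaving out each sample. The 1 called higher became 2 with the percentile shift, the dim probe filter, the trend and robust variance or no fold threshold, and 0 with the row block, in row 1 alone and on leaving out each sample (0 to 0).

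Replicate numbers are shared by the genotypes, but deviations of same-numbered samples correlated at only 0.03, 0.01 and 0.05, and B41HET sample 1 correlated about as well with B41KO sample 2 (0.03), so the numbers were not taken to pair the samples. With a replicate block 40 probes were called lower and 2 higher, 0 member probes, and 6 list genes lower and 0 higher. The fold changes of the brighter Clec10a and Cd209a probes stayed at -1.92 and -1.74 there (limma adjusted p = 0.0569 and 0.0950).

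Among the member probes, 16 values changed sign, none of them of a called probe. With the row block and in row 1 alone, Flt3 stood at -0.019, the brighter Zbtb46 probe at -0.052 and the brighter Clec9a probe at 0.30. With the percentile shift the dimmer Cd209a probe stood at 0.010 and the dimmer Irf4 probe at 0.026. On leaving out each sample, the brighter Zbtb46 probe ran from -0.014 to 0.040, the dimmer Cd209a probe from -0.24 to 0.023, the dimmer Irf4 probe from -0.34 to 0.13, Xcr1 from -0.96 to 0.12, the brighter Clec9a probe from -0.57 to 0.18 and the dimmer Clec9a probe from -0.78 to 0.29. The cause of these changes was not tested. Signal near background limits Xcr1, Clec9a and the dimmer Zbtb46 and Ccr7 probes.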
